A study of Homo sapiens with 52 samples.

Results

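The short arm of human chromosome 6 carries the histone gene cluster 1 and the HLA region next to each other, and their contacts with the nuclear lamina were read in single cells. The histone block was taken as bins from 25.7 to 29.0 Mb (hg19) and the HLA block as bins from 29.6 to 33.5 Mb. The interval between them and 3 Mb on each side were added. In all, 138 of the 26584 measured bins of 100 kb fell in this window, 72 of them in the blocks (33 in the histone block and 39 in the HLA block), with 6 in the interval and 30 in each flank. The study used clone 14 of KBM7, an established human chronic myeloid leukaemia line, with a ploidy of 2N. In every cell the bacterial adenine methyltransferase Dam was joined to Lamin B1, which builds the lamina, and the fusion was stabilised for 15 h by Shield1 at 0.5 nM. Among cells that carried both Fucci cell cycle markers, the smallest 2% were sorted one by one. Their DNA was cut by DpnI, which recognises methylated GATC, and amplified with 21 PCR extension steps.

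All 51 cells analysed form 1 group of 1 clone, so there is no treated or control group. The labels tell of no independent cultures. The cells are therefore treated as 1 sample, no p-value over cells is given, and each SD describes the spread between these cells only. A 2N cell gives 1 value per bin, so the copies of the chromosome cannot be told apart. The cells held 50978 to 316463 recovered reads, with a median of 142540. At the threshold used for contact, a ratio of observed to expected signal (OE) of at least 1, a typical bin (with the median expected number) had 2.12 reads in the shallowest cell and 13.2 in the deepest. Over the genome's bins and cells, 31.5% of the values reached that threshold, and the contact share per cell was 31.5% ± 3.56 (SD, n = 51) for the genome and 36.1% ± 5.75 for chromosome 6.

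Genome parts that touch the lamina are called lamina-associated domains. They tend to be poor in genes and weakly transcribed, while dense stretches of active genes tend to lie away from the lamina. The histone genes of the cluster encode the core histones H2A, H2B, H3 and H4 and the linker histone H1, and are transcribed mainly during DNA replication. Clusters of tRNA genes, read by RNA polymerase III, lie among them. The HLA region holds the class I genes (such as HLA-B and HLA-C), whose products show peptides to cytotoxic T cells, the class II genes (HLA-DR, HLA-DQ, HLA-DP), whose products show peptides to helper T cells, and between them the class III genes, among them TNF and the complement genes C2 and CFB. Between the histone and HLA genes lies a cluster of olfactory receptor genes, which serve smell in the nasal epithelium.

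The RefSeq gene order of GRCh38.p14 was used for names only, since its positions differ from hg19 and genes were therefore not placed in bins. It held the listed genes in the order of the 5 stretches, from NRSN1 to SCGN in the flank before, SLC17A1 to TRIM27 in the histone block, OR2W1 to GABBR1 in the interval, HLA-F to DAXX in the HLA block and BAK1 to STK38 in the flank after. It counted 55 histone genes (6 of H1, 12 of H2A, 15 of H2B, 10 of H3 and 12 of H4), 144 tRNA genes between SCGN and OR2W1, 14 olfactory receptor genes between TRIM27 and GABBR1, and 19 HLA genes, 6 of class I and 13 of class II. Protein-coding genes numbered 14 from NRSN1 to SCGN, 92 from H2AC1 to TRIM27, 142 from HLA-F to DAXX and 46 from BAK1 to STK38.

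Dam methylates the adenine of GATC, so a stretch can be read only where it holds that site. To show the site in each gene family, the RefSeq promoter with the most GATC sites is given for 1 histone, 1 olfactory receptor and 1 HLA gene as the 250 bases before the start site, 5′ to 3′ on the gene's strand, with GATC in capitals. H1-4, a linker histone gene, holds 3 sites at chr6:26156079-26156328 on the plus strand. OR2J2, an olfactory receptor gene, holds 1 site at chr6:29170657-29170906 on the plus strand. HLA-DMA, whose product loads peptides onto class II molecules, holds 2 sites at chr6:32953098-32953347 on the minus strand. Sites were counted in the 250 bases only, and HLA-DRB5, carried by some haplotypes only, was left out of the choice. These positions are in GRCh38.p14, and the choice was made after the values were seen.
H1-4: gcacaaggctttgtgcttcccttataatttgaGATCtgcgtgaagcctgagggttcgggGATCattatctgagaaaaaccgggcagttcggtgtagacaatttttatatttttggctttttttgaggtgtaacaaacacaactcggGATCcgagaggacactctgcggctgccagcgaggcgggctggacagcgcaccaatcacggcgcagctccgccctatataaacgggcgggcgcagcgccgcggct
OR2J2: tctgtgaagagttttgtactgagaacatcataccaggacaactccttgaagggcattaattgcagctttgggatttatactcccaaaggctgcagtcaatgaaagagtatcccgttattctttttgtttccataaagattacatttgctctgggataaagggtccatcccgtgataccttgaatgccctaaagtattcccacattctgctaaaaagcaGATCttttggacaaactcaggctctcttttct
HLA-DMA: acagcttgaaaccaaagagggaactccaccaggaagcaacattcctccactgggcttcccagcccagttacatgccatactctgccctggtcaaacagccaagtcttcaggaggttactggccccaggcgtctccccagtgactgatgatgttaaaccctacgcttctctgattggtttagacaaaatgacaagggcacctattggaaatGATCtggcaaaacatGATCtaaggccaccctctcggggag

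RefSeq promoters, taken as 250 bases before to 50 after the start, matched 50 of the 55 histone genes, 13 of the 14 olfactory receptor genes and 16 of the 19 HLA genes. GATC lay in 11 of the histone promoters (22.0%), 4 of the olfactory receptor promoters (30.8%) and 4 of the HLA promoters (25.0%), against 41.7% of all 27305 promoters. The letters CCAAT, on either strand, lay in 43 of the histone promoters (86.0%), 14 of the HLA promoters (87.5%) and 4 of the olfactory receptor promoters (30.8%), against 35.7% of all promoters. The letters TATAAA, on either strand, lay in 33 of the histone promoters (66.0%), 5 of the olfactory receptor promoters (38.5%) and 4 of the HLA promoters (25.0%), against 12.0% of all. Matches were counted without regard to overlap with another motif, and a match is a description of these 300 bases only. The median GC content was 42.3% in the histone promoters, 39.0% in the olfactory receptor promoters and 46.2% in the HLA promoters, against 58.3% over all promoters.

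The window fell into a contacted flank, a histone block with contact mainly at its first edge, an interval contacted in some cells, and an HLA block and flank without contact. The contact share per cell, the percent of a stretch's bins at an OE of at least 1, was 53.9% ± 10.7 (SD, n = 51) in the flank before, with a lowest of 13.3%, a median of 53.3% and a highest of 73.3%. It was 2.5% ± 3.36 in the histone block, with a lowest and a median of 0 and a highest of 12.1%. In the interval it was 8.5% ± 16.5, with a lowest and a median of 0 and a highest of 50.0%. The interval's share was 19.9% with the threshold at an OE of 0.5 and 1.96% at 2. In the HLA block and the flank after it was 0 in each of the 51 cells. The flank before thus stood above every other stretch, and the ranges of the histone block and the interval both began at 0.

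**Figure D1:**
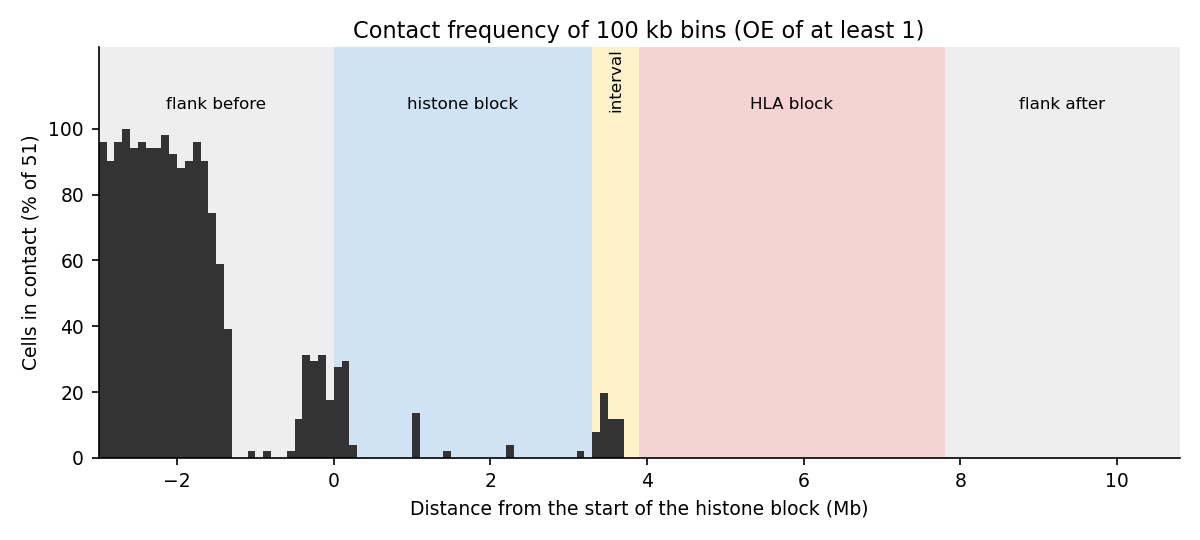
Percent of the 51 cells in contact (OE of at least 1, vertical axis) for each 100 kb bin (bars) against the distance in Mb from the start of the histone block. Bars of the flank before reach 100%, those of the histone block stay at or below 29.4%, those of the interval at or below 19.6%, and no bar rises over the HLA block and the flank after.

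Within cells, the histone block's share differed by −51.4 percentage points ± 9.55 (SD, n = 51) from the flank before, by −33.6 ± 5.86 from chromosome 6 and by −29.0 ± 4.77 from the genome, and it was lower in 51 of 51 cells each time. The HLA block differed by −31.5 points ± 3.56 from the genome, and was also lower in 51 of 51 cells. The histone block stood above the HLA block by 2.5 points ± 3.36, higher in 22 cells and equal in 29, a difference smaller than its SD. The interval exceeded the HLA block by 8.5 points ± 16.5, higher in 13 cells and equal in 38. It stood above the histone block in 13 cells, below it in 12 and level with it in 26 (6.0 points ± 15.2). Only 7 cells had an interval share above that of their genome.

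**Figure D2:**
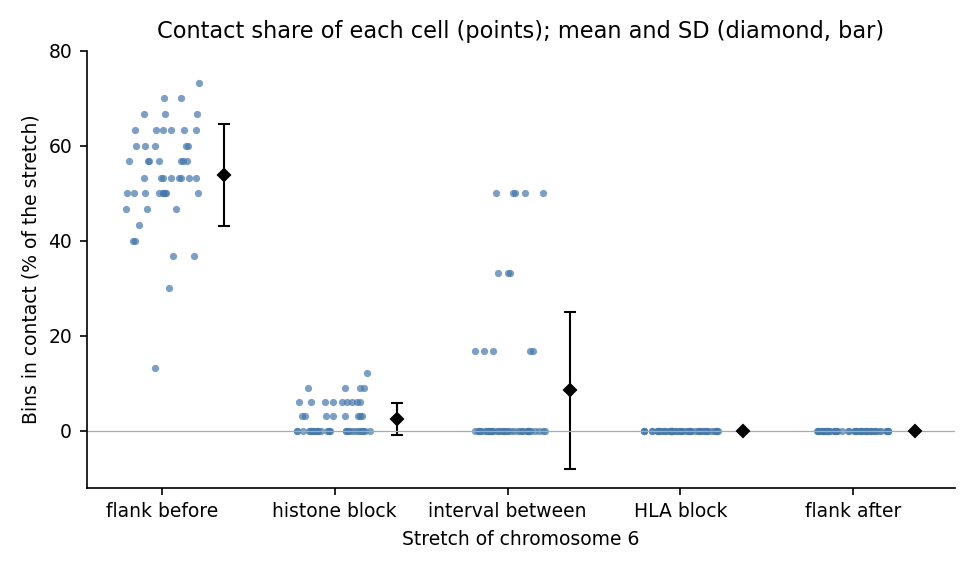
Contact share (percent of the stretch's bins at an OE of at least 1, vertical axis) of each of the 51 cells (points) in the 5 stretches of the window, with the mean (diamond) and SD over cells (bar). The flank before spans 13.3% to 73.3%, the histone block 0 to 12.1% and the interval 0 to 50.0%, while every point of the HLA block and the flank after lies at 0.

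By bin, 26 of the 33 histone bins (78.8%), 2 of the 6 interval bins, all 39 HLA bins and all 30 bins of the flank after were contacted in no cell, against 38.7% of all measured bins. The other 7 histone bins, 21.2% of the block, had contact in at least 1 cell, against 61.3% of all measured bins. In the flank before, 5 of 30 bins were contacted in no cell. Of its bins, 16 (53.3%) were contacted in 26 or more cells, against 32.1% of all measured bins, and 14 (46.7%) in 80% of cells or more, against 20.9%. The stretch from 29400001 to 38200000, which takes in the HLA block and runs past the flank after, was the longest run of chromosome 6 contacted in no cell. It spanned 88 bins or 8.8 Mb and ranked 1 of 95 such runs. No read fell in 30 of its bins in any cell, so their expected number is unknown. Allowing contact in up to 5% of cells, it ran from 29400001 to 38800000 (9.4 Mb) with 3 contacts in all.

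The HLA block gave almost no reads, although most of its bins had an expected number near that of the genome. It held 104 reads over 51 cells, where an OE of 1 in its bins would have given 7431.4, or 1.4% of that number. This comparison covers the 25 HLA bins with a read in any cell, which had a median expected number of 299, against 316 for the genome. The other 14 bins had none, so their expected number is unknown, and 7.47% of all measured bins were of that kind. No HLA bin reached an OE of 1. For the 0 of 51 cells with contact, a limit of 3 cells would be 5.88% of cells. This limit takes the cells as independent draws, which the labels do not show. It covers the sampling of cells only and does not reach beyond this 1 sample. The highest OE was 0.651, in the bin from 32800001 to 32900000 in cell 32, on 4 reads.

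Reads stayed sparse along the whole block. Its genes run in order from class I (HLA-F, HLA-G, HLA-E) over class I and III (HLA-C, HLA-B, TNF) to class II and the peptide transporter genes TAP1 and TAP2, and were not placed in bins. The block was read in 3 parts of equal length. In the first part, from 29.6 to 30.9 Mb, 24 reads were 1.03% of those at an OE of 1. In the middle part, from 30.9 to 32.2 Mb, 34 reads were 1.13%. In the last part, from 32.2 to 33.5 Mb, 46 reads were 2.21%. These percents cover only bins with a read in any cell. In order, 5, 3 and 6 of the 13 bins of each part held none, so the percents are not strictly comparable. No cell had contact in any of these parts. The reads of the last part sat mostly in neighbouring bins, 20 reads from 11 cells in the bin from 33200001 to 33300000 and 15 from 9 cells in the bin from 33300001 to 33400000.

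The few HLA reads came from few cells. No HLA read was found in 30 cells, and the 3 cells with the most, cells 32, 38 and 23, gave 19, 18 and 17 of the 104 (51.9%). The same 3 cells led the flank after, with 15, 8 and 9 of its 78 reads (41.0%). Their background, the share of all reads in bins that 5% of cells or fewer contacted, was 4.3%, 3.85% and 3.91%, near the top of the range over cells of 0.624% to 4.98%. Other cells of high background had fewer HLA reads. Cell 26 (4.98%) had 2, cell 45 (3.86%) had 7 and cell 12 (3.63%) had 1. Cells 17 (3.84%) and 46 (3.52%) had 0. Across the 51 cells, which share the library method and differ in depth, the mean OE of the HLA block and the background correlated with Pearson's r = 0.535 and Spearman's rho = 0.414. Without the 2 cells farthest out, r was 0.383. The HLA bins are themselves among the rarely contacted bins, and the part of the background in these values was not tested. The mean OE of the HLA block was 0.00749 ± 0.016, against 0.00813 ± 0.0155 in the flank after, where BAK1, HMGA1, FKBP5 and MAPK14 lie. Over bins with a read in any cell (25 and 19 bins), the means were 0.0117 ± 0.0249 and 0.0128 ± 0.0244.

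The histone block was not as empty as the HLA block. It held 931 reads, 9.59% of those at an OE of 1, and 42 contacts among its 1683 pairs of bin and cell. Contact of at least 1 bin occurred in 22 cells (43.1%), and cell 27 led with 4 contacted bins (12.1%), ahead of cells 14, 20, 29 and 48 with 3 each (9.09%). Contact gathered at the first edge, as the block's 3 parts of equal length show. The first part, from 25.7 to 26.8 Mb, had a share of 6.77% ± 8.69, with contact in 22 cells and 38 of the 42 contacts. The middle part, from 26.8 to 27.9 Mb, had 1 contact, in cell 27 (0.178% ± 1.27). The last part, from 27.9 to 29.0 Mb, had 3 contacts, in cells 27, 29 and 48 (0.535% ± 2.16). The first part stood above the middle in 22 cells and below it in none (6.6 points ± 8.54).

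Most of these contacts lay in 2 bins that continue a domain of the flank. The bins from 25700001 to 25900000 held 29 of the 42 contacts (69.0%), in 17 cells. A further 7 came from the bin from 26700001 to 26800000, in cells 3, 7, 9, 17, 20, 30 and 49. That bin had an expected number of 34, and each of its calls rested on 1 or 2 reads. The next bin held no read in any cell. The remaining 30 histone bins held 6 contacts, in 5 cells, with a share of 0.392% ± 1.27, and 26 of them were contacted in no cell.

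The OE level itself was higher in these 30 bins than in the HLA block in most cells. Their mean OE was 0.046 ± 0.0571, against 0.00749 ± 0.016 for the HLA block. The difference of 0.0385 ± 0.0474 was smaller than its SD, with the histone bins higher in 40 cells, lower in 5 and equal in 6. Over bins with a read in any cell the means were 0.0476 and 0.0117, and the histone bins were higher in 39 cells and lower in 6. With the contacts left out, so that only values under 1 were averaged, the mean was 0.0411 ± 0.0518, higher than the HLA block in 39 cells and lower in 5. The mean OE of these histone bins had a correlation of 0.397 with the background and of 0.699 with the HLA block over the 51 cells (Pearson's r). Without the 2 cells farthest out these were 0.29 and 0.447. Spearman's rho over all 51 cells was 0.396 and 0.364. What part the background has in the low histone signal was not tested.

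**Figure D3:**
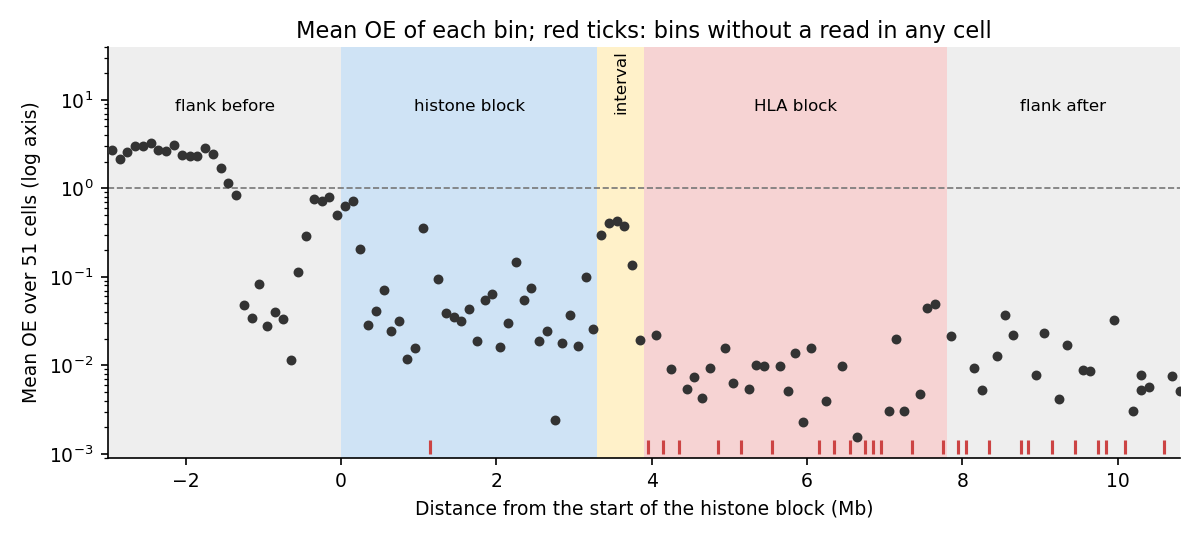
Mean OE over the 51 cells (vertical axis, log scale) of each 100 kb bin (points) against the distance in Mb from the start of the histone block, with a dashed line at an OE of 1 and red ticks for bins without a read in any cell. Points fall from above 1 in the flank before to lower levels in the histone block, rise again in the interval up to 0.422, and reach at most 0.0499 in the HLA block.

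The main contacted domain of the flank before ended at about the same place in most cells. It ran from the window's start at 22700001 to 24400000 over 17 bins that 10% or more of the cells contacted. Its first 16 bins, to 24300000, had a contact share of 90.6% ± 14.0. Every cell had contact in the domain, with 4 to 17 contacted bins and a median of 16. The mean OE over the domain was 0.743 in the lowest cell (cell 18), 2.34 in the median cell and 4.43 in the highest (cell 51). Counted as bins contacted in 26 or more cells, the domain reached back beyond the window and spanned 22000001 to 24300000, the fourth longest of 79 such runs on chromosome 6. Its most frequent bin in the window, from 23000001 to 23100000, was contacted in all 51 cells. DCDC2 and GPLD1 are listed in this flank, with KIAA0319, ALDH5A1, GMNN and SCGN. Whether each of these genes lies inside or outside the main domain was not read.

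The domain's end in each cell was read as the end of the last contacted bin before the first 5 free bins. It lay at 24.3 Mb in the median cell with an SD of 0.303 Mb, between 23.1 Mb in cell 18 and 25.8 Mb. It was 24.4 Mb in 18 cells, 24.3 Mb in 16 and 24.2 Mb in 7. The largest step between neighbouring bins of the window was at 24400001, where contact dropped from 20 cells to 0 and the mean OE went from 0.834 ± 0.795 to 0.0477 ± 0.103. The OE was lower after this border in 39 cells and higher in 1. The next largest step was at 25900001, inside the histone block, where contact dropped from 15 cells to 2 and the mean OE from 0.727 ± 0.842 to 0.208 ± 0.371. The other large steps were at 24300001, from 30 cells to 20, at 25300001, from 6 cells up to 16, and, equal in size, at 24100001, from 46 cells to 38, and at 24200001, from 38 to 30.

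**Figure D4:**
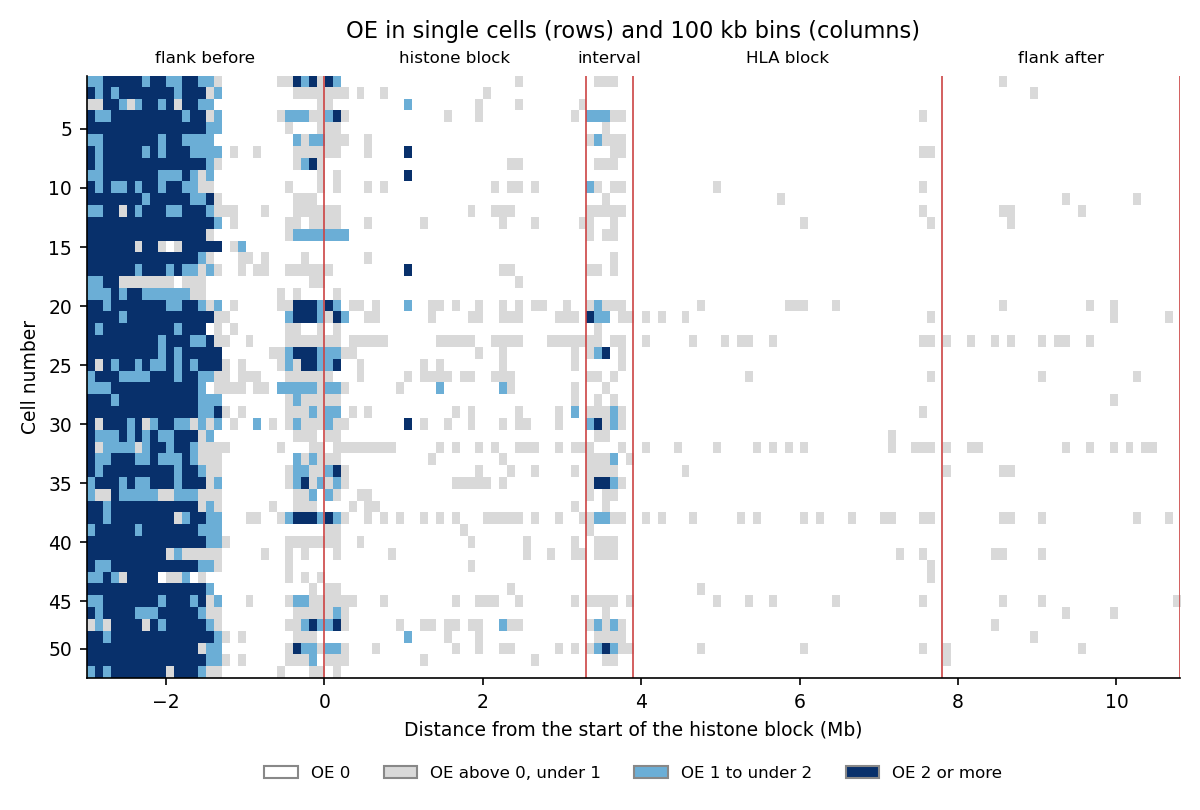
OE class (colour) of each 100 kb bin of the window (horizontal axis, distance in Mb from the start of the histone block) in each of the 51 cells (rows, by cell number, without cell 47), with red lines at the edges of the stretches. Dark rows end together at the close of the main domain, patches of contact recur around the histone block's first edge and in the interval, and no cell reaches an OE of 1 in the HLA block.

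Between the main domain and the histone block lay a gap and then a smaller domain across the block's edge. The gap, from 24400001 to 25200000, had 3 contacts in 3 cells over 8 bins and a mean OE of 0.0488, on 119 reads. The smaller domain, called the border domain here, ran from 25200001 to 25900000 and was outlined by 7 bins that 10% or more of the cells contacted, as 48.3% of all measured bins were. Its bins were contacted in 6, 16, 15, 16, 9, 14 and 15 cells in order, none in more than 16. Contact of any of its bins occurred in 23 cells and was missing in 28, and cells 24 and 38 had contact in all 7. The 45.1% of cells with contact became 70.6% with the threshold at an OE of 0.5 and 23.5% at 2. The mean OE of the domain was 0 in the lowest cell (cell 15), 0.396 in the median cell and 2.2 in the highest (cell 21). Called bins held 4 to 35 reads, with a median of 11. The contacted cells had a median depth of 145931 reads against 142368 in the others, and a median genome contact share of 31.2% against 30.3%.

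The interval with the olfactory receptor genes held the other partly contacted domain. Its bins from 29100001 to 29400000 were contacted in 10, 6 and 6 cells, and the bin before them in 4. The bins from 29.4 to 29.6 Mb, next to the HLA block, were contacted in none. Contact of at least 1 of the 3 bins occurred in 12 cells (23.5%), and in 45.1% of cells with the threshold at an OE of 0.5 and 7.84% at 2. The mean OE over these 3 bins was 0 in 13 cells, 0.193 in the median cell and 2.35 in the highest (cell 35). Called bins held 5 to 20 reads. Contacted cells had a median depth of 133930 reads against 142900 in the others. MAS1L and UBD, a ubiquitin-like gene, are listed in the interval with OR2W1, OR2B3, OR2J2, OR5V1, OR12D3 and GABBR1, a receptor subunit for GABA. Here too, the genes were not placed inside or outside the contacted bins.

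The 2 partly contacted domains were contacted in overlapping sets of cells. All 12 cells with contact in the interval domain also had contact in the border domain (100% of the interval domain cells and 52.2% of the 23 border cells). Of the 13 cells with contact anywhere in the interval, cell 10 had none in the border domain. Its contact lay in the bin from 29000001 to 29100000. That bin was contacted in 7.84% of cells, so the 10% cut left it out of the interval domain. Contact in the border domain alone occurred in 11 cells, in the interval domain alone in 0, and in neither in 28. Cells with contact in both had a mean OE of 1.35 ± 0.547 in the border domain and 1.17 ± 0.507 in the interval domain (SD, n = 12). Cells with border contact alone had 1.03 ± 0.55 and 0.297 ± 0.21 (n = 11), and cells with neither had 0.175 ± 0.131 and 0.113 ± 0.163 (n = 28). The border cells without interval contact thus ranged from 0 to 0.723 in the interval domain, and the lowest cell with both had 0.591, so these groups, which the threshold itself separates, overlapped. With the threshold at an OE of 0.5, 2 of 23 interval cells had no border contact, so the share with both was 91.3%. At an OE of 2 it was 1 of 4 cells (75.0% with both), and with all cells thinned to 50978 reads it was 3 of 16 (81.2% with both).

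**Figure D5:**
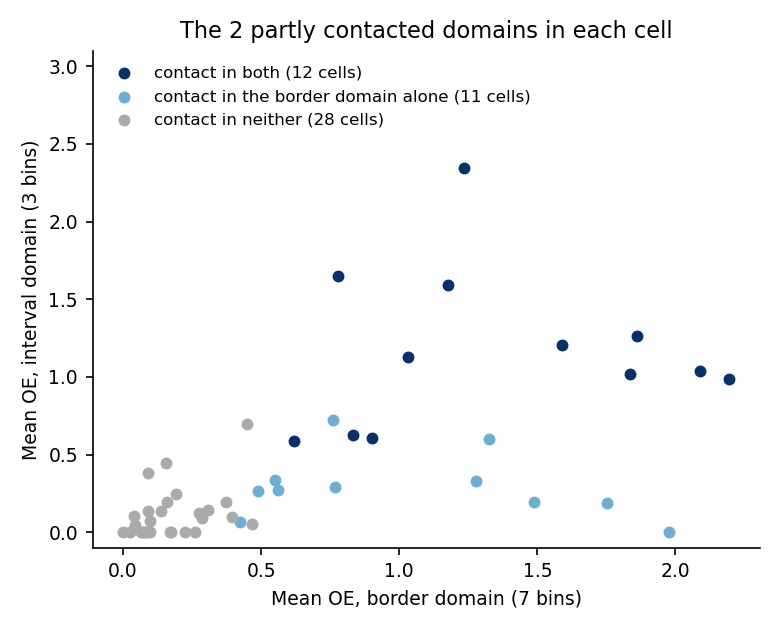
Mean OE of the interval domain (3 bins, vertical axis) against mean OE of the border domain (7 bins, horizontal axis) in each of the 51 cells (points), coloured by contact in both domains (12 cells), in the border domain alone (11) or in neither (28). Cells with contact in neither domain stay at or below 0.466 in the border domain, and cells with contact in both reach 2.2 in the border domain and 2.35 in the interval domain.

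Over the 51 cells, the mean OE of the border and interval domains had Pearson's r = 0.6 and Spearman's rho = 0.711, and r = 0.569 without the 2 cells farthest from the median. With the cells' genome contact share removed, r was 0.595. The values of a cell share its library and depth, and with the cell's read total the border domain had r = 0.0546 (rho = 0.154) and the interval domain r = 0.0274 (rho = 0.149, and r = 0.138 without the 2 cells farthest out). With the genome contact share they had rho = 0.258 and 0.267. The main domain, which lies nearer to the border domain, had r = 0.16 with it and r = 0.098 with the interval domain. By single bins, the 21 pairs of a border bin with an interval bin, 3.3 to 4.1 Mb apart, had a mean phi correlation of contact of 0.402, from −0.133 to 0.678. Pairs of like distance had a mean of 0.105 on chromosome 6 outside the window (2102 pairs) and of 0.152 over the genome (33157 pairs). Of these single pairs, 90% lay below 0.296 and 0.347, and the highest reached 0.669 and 0.852. A mean over 21 pairs that share bins cannot be ranked among single pairs. Whether the bins of these other pairs had a contact frequency like that of the domain bins was not tested. Both domains were outlined from the contacts of these cells, so these values describe them and are no test.

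The last contact of the window before the HLA block came at 23.1 Mb in the lowest cell, 25.6 Mb in the median cell and 29.4 Mb in the highest. It lay in the flank before in 26 cells, in the histone block in 12 and in the interval in 13. In 5 of these 12 cells it was the bin of low expected number at 26.7 Mb. Without that bin, the last contact lay in the flank before in 31 cells and in the histone block in 7, and its median moved to 24.4 Mb. From that point to the window's end each cell was free of contact. The longest contact-free run per cell was read within the window only. It was 7.1 Mb at the shortest, 10.9 Mb in the median cell and 13.4 Mb at the longest. The longest was that of cell 18, which had 4 contacted bins in the window. Each of these runs was cut at the window's end at 36.5 Mb. No cell had contact from there to 38200000, so the full runs were longer. The cells with the highest share of the flank before were cells 24 (73.3%), 21 and 38 (70.0% each), and those with the lowest were cells 18 (13.3%), 43 (30.0%), and 36 and 41 (36.7% each). Cells 21 and 38 also had contact in both smaller domains, as did cell 24. The border domain's bins up to 25700000 belong to the flank before. Contact in them is therefore part of this ranking and no separate result.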

How the data were processed

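The authors deposited 1 table of 30376 bins of 100 kb with a column per cell, whose values are ratios of observed over expected signal (OE). Reads were handled with cutadapt and Bowtie2 2.1.0 on hg19, per the submitters' processing notes. The source of the expected value and the treatment of duplicate reads are not given in the sources used. A total of 3792 bins had no value and were left out, 26584 had a value in each of 51 cells, and 1985 of these were 0 in every cell. Cell 47 of the 52 labelled cells was not analysed here.

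Reads per bin were recovered from the ratios as whole numbers: each value above 0 is a read count, times a factor of the cell, over a whole number of the bin (its expected number). Of the values above 0, 100% gave whole reads within a tolerance of 0.02. Reads over expected number reached at most 1 in any bin, so a read may be a distinct site. On simulated data over 24599 bins and 51 cells, 99.997% of the values above 0 were recovered, counted over all bins together. Where the reads of a bin share a divisor, the smallest whole expected number was taken. Reads and expected numbers of bins with few reads, as in the HLA block, may therefore be too low. The OE values are not changed by this. PCR reads carry no molecular identifiers, and the limit given for 0 cells with contact covers the sampling of cells only. Python 3.11.15, numpy 2.4.6, pandas 2.3.3, scipy 1.17.1 and matplotlib 3.10.9 were used.

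A bin was in contact at an OE of at least 1, and each block was also cut into 3 equal parts. Differences are within cells, with the SD over cells. The named bins are the most contacted bin of each stretch, the longest run contacted in no cell, the 5 largest steps and the runs contacted in 26 or more cells. The named cells are those with the 3 highest and 3 lowest shares in each stretch, with ties above 0. Domains were outlined as bins that 10% or more of the cells contacted. Alternatives were thresholds at an OE of 0.5 or 2, contact as each cell's top 30% of bins, mean OE, mean log2(OE + 0.1), bins with a read, an expected number of at least 100, odd-numbered or even-numbered cells, thinning to 50978 reads, leaving out the 5 cells of highest background, and leaving out 2 bins at each edge. The members, gene lists and domains were chosen with earlier results of these data known.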

Additional observations from a re-analysis of the deposited data

How the results depend on the processing

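Of 344 values recomputed under 14 alternatives, 309 counted as unchanged, 35 moved further and 0 reversed. Unchanged meant a move of less than the SD over cells (for counts, of at most 1.5 times). For mean OE and mean log2(OE + 0.1), whose units differ, it meant the same sign, or under the SD where the main value was 0. In most alternatives a difference no larger than its SD could not count as reversed. This applies to the histone block against the HLA block and to the HLA block against the flank after. The contact shares of the histone block (2.5% ± 3.36) and the interval (8.5% ± 16.5) were smaller than their SD. Large relative moves of these shares therefore counted as unchanged. With the threshold at 0.5 and 2, the histone block's share was 5.35% and 0.713%, and the interval's was 19.9% and 1.96%. The threshold moved the levels by its own construction. With the threshold at 0.5, the contact share was 0.151% in the HLA block and 0.131% in the flank after (a difference of 0.0201 points), and contact of any bin occurred in 72.5% of cells in the histone block, 45.1% in the interval, 3.92% in the HLA block and 3.92% in the flank after. The HLA block then stood −43.3 points from chromosome 6 and −38.6 from the genome, and 45.5% of histone bins were contacted in no cell. With the threshold at 2, the flank before had a share of 37.3%, and the histone and HLA blocks stood −36.5 and −37.3 points from it, −23.2 and −23.9 from chromosome 6 and −19.3 and −20.0 from the genome. Contact then occurred in 23.5% of cells in the histone block and 9.8% in the interval. With cells thinned to 50978 reads, the share was 0.0503% in the HLA block and 0.131% in the flank after (−0.0804 points), with contact in 1.96% and 3.92% of cells. Thinning drew reads at random from each cell and scaled the OE up to match, so each read kept in a deeper cell counted for more. What part this had in these contacts was not tested. In the odd-numbered cells, 16.0% had contact in the interval, against 34.6% of the even-numbered cells and 25.5% of all, and the interval's share was 5.33% and 11.5%. Without the 2 outermost bins at each edge, 21.6% of cells had contact in the histone block. Without the border domain and the bin of low expected number, an alternative chosen after seeing the data, 9.8% did. The last contact without that bin and the mean over values under an OE of 1 were also chosen then. The lower shares of cells follow from leaving out the bins with most of the block's contacts.

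Mean OE and mean log2(OE + 0.1) gave the histone and HLA blocks the same directions against the flank before, chromosome 6 and the genome. The histone block exceeded the HLA block by 0.392 to 5.2 points over the alternatives that count contacts, and the main domain's median end stayed between 24.1 and 24.4 Mb. Few reads support a call in 1 bin of a shallow cell, and a contact of 1 of the chromosome's copies cannot be told from a contact of both.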
